A study of Mus musculus with 4 samples.

Results

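The cells compared here are 2 populations from the mouse large intestine, taken from its lamina propria, a layer of connective tissue that lies beneath the epithelial lining. Both carried the integrins CD11c and CD11b at the surface, and they were separated by a high level (CX3CR1high) or the lack (CX3CR1-) of the fractalkine receptor CX3CR1. They are 2 of the 4 samples in the series, taken by the labelled cell type. The others are a CD11b+ population lacking CD11c, titled Mf, and a CD11chigh population of dendritic cells (DCs), titled CD103, lacking CD11b. All came from C57BL/6J mice with no treatment or genetic change named. The labels used here give no age, number of animals, pooling or method of separating the cells. Every population had a single Affymetrix array that reads the 3' ends of transcripts, so no ratio below has a replicate, a test or an error between animals. Of 22690 probe sets, 20380 named exactly 1 gene, and these were read as 12393 genes. Values are linear signal intensities. Signals under 103, the median of the non-control probe sets of all 4 arrays, were raised to this floor before dividing. Where this happened on 1 array only, the fold is a minimum and carries the words at least. Where it happened on both, no fold is given. In bulk RNA of a population, fewer cells of a type and less RNA per cell cannot be told apart.

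Resident macrophages of the gut wall descend from blood monocytes, mature in place while gaining CX3CR1, and are known for taking up dead cells and microbes and for making IL-10. Conventional DCs depend on the growth factor receptor Flt3, sample antigen in the tissue and, once mature, use the chemokine receptor CCR7 to travel to the lymph node, where they prime T cells. CD11c and CD11b are found on both macrophages and DCs of the intestine, and CX3CR1 is commonly used to part them. The sample title of the CX3CR1- cells adds the word DC, and the label of the CX3CR1high cells names them macrophages.

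A ratio could be taken for 7462 genes. The CX3CR1high signal exceeded the CX3CR1- signal by 4-fold or more in 103 of them (1.38%), and the reverse held for 94 (1.26%), so that 197 genes (2.64%) are called higher or lower below. Of the higher genes 86 were measured on both arrays and 17 were bounds, and of the lower genes 79 were measured and 15 were bounds. The 2 arrays were alike for most genes: 84.9% lay within 2-fold, and the median log2 ratio was 0.02. At 2-fold, 8.56% of all genes were higher and 6.54% lower. These shares belong beside each count of list members below. Where several probe sets read 1 gene, their log2 ratios had an SD of 0.42 (5204 probe sets of 2112 genes), a spread that leaves out differences between mice and between preparations. Further probe sets of the higher genes numbered 46, of which 38 also passed 2-fold in that direction and 0 in the other. Those of the lower genes numbered 39, of which 29 also passed 2-fold in their direction and 0 in the other. The lowest ratio called higher was that of Fcrls (4.01-fold), and Cd48 fell just short of the limit. At the other end Ltb4r1 (at least 4.01-fold lower) was called and Lmnb1 (3.99-fold lower) was not.

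For some genes described below as past 2-fold, another probe set had a ratio within 2-fold. Among the higher genes these are C1qb, Ccr1, Cd55, Cxcl13, Grn, Hpgd, Irf8, Itga6, Itga9, Msr1, Plau, Tgfbr2, Timp2 and Tlr7. Among the lower genes they are Ccr2, Ciita, Fn1, Fscn1, Il12b, Nfkb2, Nr4a2, Stat6, Tesc and Tnfrsf9. Conversely, another probe set passed 2-fold toward the CX3CR1high array for Abca1, Ccl9, Csf1r, Il1rn and Sirpa, and toward the CX3CR1- array for Ccl6 and Csf2ra, which are described as within 2-fold. Cd86 had a probe set of opposite sign. Further probe sets under the floor in both arrays gave no ratio and are not counted here. The other probe set of Cx3cr1, Kit, Dpp4 and Trem2, for example, was of this kind.

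Several measured features of the arrays went with the comparison. Control probe sets at both ends of a transcript, whose 3' signal outweighs the 5' signal more strongly in degraded RNA, gave 3'/5' ratios of 1.08 (Gapdh) and 1.68 (Actb) for the CX3CR1high cells and of 3.40 and 2.76 for the CX3CR1- cells. The same ratios were 2.17 and 3.18 for the CD11b+ cells and 0.791 and 1.11 for the CD11chigh DCs. The part of these differences in the results was not tested. In the epithelial marker list 16 of 22 members were higher by 2-fold or more in the CX3CR1high array, where 8.56% of all genes were, and 0 were lower, where 6.54% were. The summed signal of its 23 measured members was 40171 there, against 10548 in the CX3CR1-, 4804 in the CD11b+ and 6434 in the CD11chigh array. Reference genes differed little, with 0 of 11 at 2-fold and a median log2 ratio of -0.01. The 27 measured genes of the respiratory chain were all within 2-fold as well (median 0.05).

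**Figure D1:**
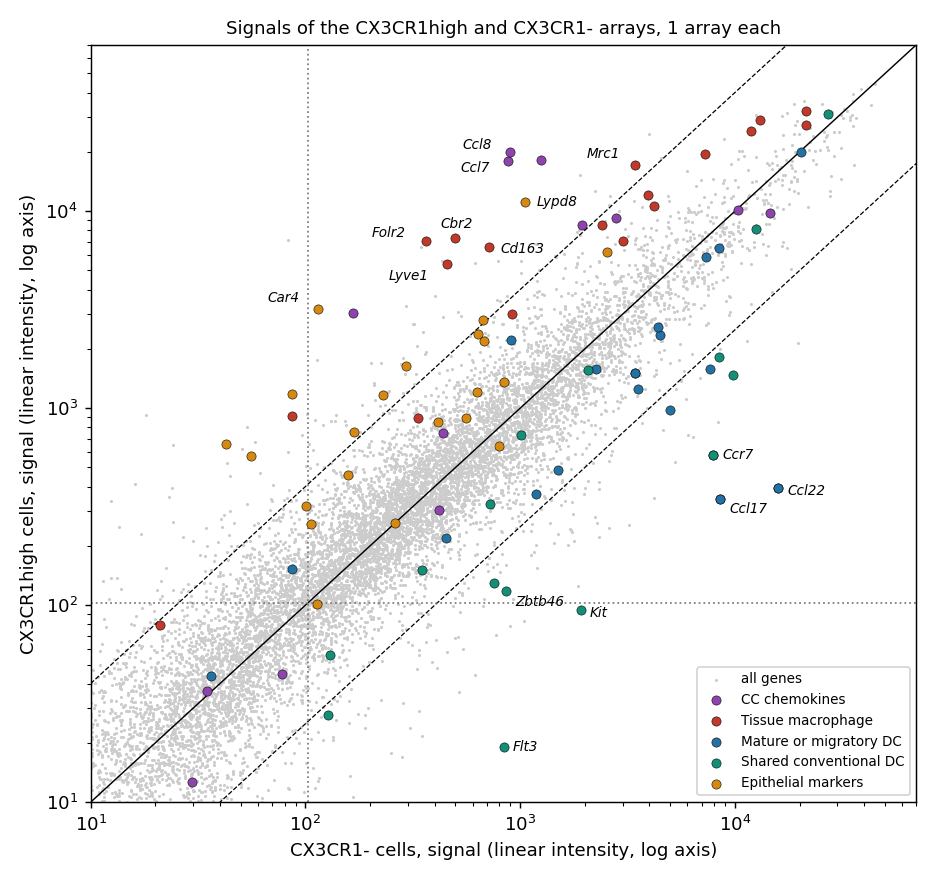
Signal of each gene in the CX3CR1- array (x) and the CX3CR1high array (y), 1 array each, in linear intensity on log axes, for signals of 10 and above. The solid line marks equal signals, dashed lines 4-fold, dotted lines the floor of 103. Coloured points are members of 5 gene lists; a gene in several lists takes the colour of the last one drawn. Most genes lie near the line of equal signals, and once signals are raised to the floor 103 lie 4-fold or more above it and 94 as far below it.

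The genes of the surface markers that define the populations, whose values describe the choice of cells, came first. The Cx3cr1 signal was 1499 in the CX3CR1high array and 291, still over the floor, in the CX3CR1- array (5.15-fold). The CD11b+ array stood between them at 638 and the CD11chigh array at 65.2. Itgam, which encodes CD11b, was 691 against 408, within 2-fold. Itgax, which encodes CD11c, was 1826 against 8412, 4.61-fold lower in the CX3CR1high array although both populations are labelled CD11c+. Itgae, which encodes CD103, was under the floor in the CX3CR1high array and reached 374 in the CX3CR1- array, far below the 4962 of the CD11chigh DCs. The pan-leukocyte gene Ptprc was level, at 8217 against 8950.3.

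Spic, the ETS-family transcription factor in the title of the series, which red pulp macrophages of the spleen need, was read by 2 probe sets. The set with the _s_at suffix gave 936 against 102, at least 9.10-fold, and the set with the _x_at suffix 2163 against 176, or 12.3-fold. The signals of the other arrays were 239 and 464 in the CD11b+ cells and 29.2 and 87.1 in the CD11chigh DCs. Both suffixes mark sets that can match more than 1 transcript. Its relative Spi1, which encodes PU.1, was level at 2748 against 2749.

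Upstream sequences of a few genes are shown because members of a chemokine family stood at opposite ends of the comparison, and because Spic is the gene of the series. They run over the 250 bases before the first listed start of each gene, from RefSeq on GRCm38.p6, and are read 5′ to 3′ on the gene's strand. Ccl8 and Ccl12, at chr11:82114935-82115184 (plus strand) and chr11:82101595-82101844 (plus strand), were higher in the CX3CR1high cells. Ccl17 and Ccl22, at chr8:94810203-94810452 (plus strand) and chr8:94745434-94745683 (plus strand), were higher in the CX3CR1- cells. Spic lies at chr10:88683024-88683273 (minus strand). Capitals mark matches on either strand to GAGGAA (an ETS core), the NF-kB type motif (GGGA and CC, parted by 4 bases of any kind) or TGANTCA (AP-1 type).
Ccl8: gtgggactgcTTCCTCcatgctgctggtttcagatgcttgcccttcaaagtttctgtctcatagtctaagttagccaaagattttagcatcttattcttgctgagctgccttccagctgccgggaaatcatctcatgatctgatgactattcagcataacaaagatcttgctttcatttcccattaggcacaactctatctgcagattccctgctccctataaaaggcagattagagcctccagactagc
Ccl12: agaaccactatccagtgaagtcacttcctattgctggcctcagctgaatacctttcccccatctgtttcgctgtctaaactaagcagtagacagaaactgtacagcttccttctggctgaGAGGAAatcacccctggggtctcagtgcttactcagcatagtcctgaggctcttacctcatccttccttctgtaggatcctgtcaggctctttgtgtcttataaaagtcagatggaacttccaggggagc
Ccl17: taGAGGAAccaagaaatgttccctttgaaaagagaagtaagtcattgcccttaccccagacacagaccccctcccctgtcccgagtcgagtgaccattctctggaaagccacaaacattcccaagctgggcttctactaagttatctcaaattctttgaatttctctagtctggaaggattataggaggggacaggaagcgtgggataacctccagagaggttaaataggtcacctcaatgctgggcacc
Ccl22: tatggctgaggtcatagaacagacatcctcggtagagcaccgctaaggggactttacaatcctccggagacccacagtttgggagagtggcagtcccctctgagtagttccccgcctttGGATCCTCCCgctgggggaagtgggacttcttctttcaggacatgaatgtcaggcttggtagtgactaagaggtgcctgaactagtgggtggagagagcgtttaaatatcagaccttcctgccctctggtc
Spic: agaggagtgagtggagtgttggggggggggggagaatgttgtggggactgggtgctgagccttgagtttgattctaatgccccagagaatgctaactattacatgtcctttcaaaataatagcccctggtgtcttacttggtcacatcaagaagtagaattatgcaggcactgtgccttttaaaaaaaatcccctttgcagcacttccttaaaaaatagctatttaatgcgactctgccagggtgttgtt
The window of Ccl8, Ccl12 and Ccl17 held 1 ETS core each, that of Ccl22 1 NF-kB type match, and that of Spic 0 matches to any of the 3 motifs. A first listed start was found for 78 of the 103 genes called higher, 78 of the 94 called lower and 6097 of the 7462 genes with a ratio. GAGGAA was held by 29.5% of the higher, 30.8% of the lower and 23.0% of all genes with a ratio. For the NF-kB type motif the shares were 28.2%, 19.2% and 22.4%, and for TGANTCA 11.5%, 11.5% and 4.71%. Over all 27025 RefSeq windows of this length the shares were 23.1%, 17.3% and 6.87%. The 3 motifs can overlap each other, and a match is a string of letters and not a bound site.

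Chemokine genes stood at both ends of the comparison. In the CC family 6 of 13 members exceeded 2-fold toward the CX3CR1high array and 3 toward the CX3CR1- array (median log2 ratio 0.77). The monocyte attractants and their neighbours led the higher ones. Ccl8 stood at 19869 against 895 (22.2-fold), Ccl7 at 17991 against 874 (20.6-fold), Ccl12 at 3031 against 167 (18.2-fold) and Ccl2 at 18214 against 1255 (14.5-fold). For these 4 genes the order of the arrays was the same, with the CX3CR1high cells highest, then the CD11b+ cells, the CX3CR1- cells and the CD11chigh DCs. Ccl4 (8509 against 1947, 4.37-fold) and Ccl3 (9278 against 2793, 3.32-fold) were also higher. Lower were Ccl22 (393 against 15935, 40.5-fold) and Ccl17 (348 against 8559.5, 24.6-fold), both ligands of CCR4 that draw T cells, and Ccl5 (1513 against 3425, 2.26-fold). Ccl22 had the largest measured ratio of any gene in the lower direction. Its signal in the CX3CR1- cells was also above that of the CD11chigh DCs (6194), while Ccl17 was near theirs (9138). Ccl6, Ccl9, Ccl11 and Ccl24 were within 2-fold, and Ccl1, Ccl20, Ccl25 and Ccl28 were under the floor in both arrays.

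Among CXC and CX3C chemokines 3 of 12 members passed 2-fold toward the CX3CR1high array and 0 the other way. The CX3C member, Cx3cl1, was 124 against 238, within 2-fold. Pf4, a platelet factor that macrophages also make, was 24576 against 3963 (6.20-fold). Cxcl13, which draws B cells, was 347 against 141, and Ppbp at least 2.72-fold higher. The neutrophil attractants Cxcl1 (9230.3 against 5832) and Cxcl2 (31316 against 17439) were within 2-fold.

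Chemokine receptors divided in the same pair of arrays, with 3 of 12 at least 2-fold higher and 2 lower. Ccr7 was 576 against 7927, 13.8-fold lower in the CX3CR1high cells, and the CX3CR1- signal was close to that of the CD11chigh DCs (8091). Ccr2, which lets monocytes enter tissue, was 269 against 752, and both lay under the 1482 of the CD11b+ cells. Besides Cx3cr1, the receptors Ccr1 (8991 against 4318) and Ccrl2 (4038 against 1470.2) were higher. By the probe sets used, 6 receptors, Xcr1 among them, were under the floor in both.

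**Figure D2:**
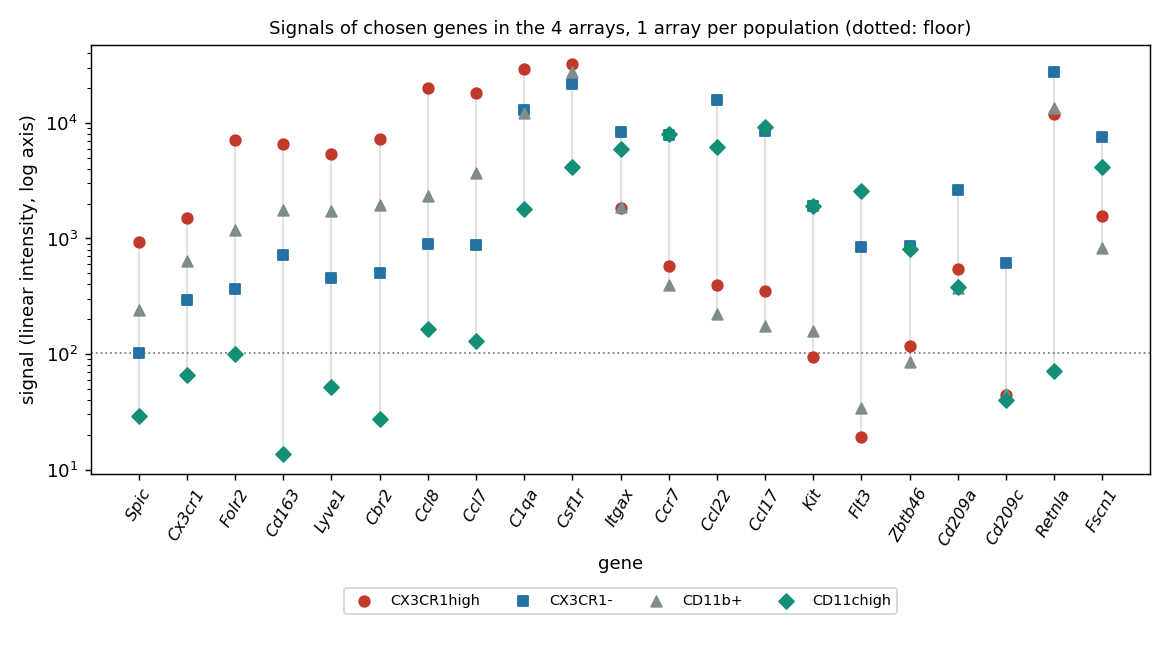
Signals of 21 genes in the 4 arrays (linear intensity, log axis), 1 point per population and no error bars since each had 1 array; the dotted line is the floor of 103. Macrophage genes on the left are highest in the CX3CR1high array, from Spic (936) to Csf1r (32267). For Ccr7, Kit and Zbtb46 the CX3CR1- and CD11chigh points lie close together, and for Cd209c only the CX3CR1- point (615) is above the floor.

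Tissue macrophage genes were higher in the CX3CR1high array in 15 of 17 members with a ratio and lower in 0, with a median log2 ratio of 1.62 against 0.02 over all genes. The folate receptor gene Folr2 was 7079 against 364 (19.4-fold), the hyaluronan receptor Lyve1 5416 against 455 (11.9-fold) and the carbonyl reductase Cbr2 7276 against 498 (14.6-fold). The hemoglobin scavenger receptor Cd163 was 6566 against 718 (9.15-fold). Fcna, which encodes the lectin ficolin A and was not on the list, was 6577 against 345 (19.1-fold). The C1q chains C1qa (28998 against 13027), C1qb (25663 against 11835) and C1qc (19587 against 7270.1) were 2.17- to 2.69-fold higher. The growth factor receptor Csf1r (32267 against 21522) and Cd14 (27527 against 21313) were within 2-fold, but the other probe sets of Csf1r gave log2 ratios of 1.34 to 1.52. Macrophage transcripts were also present in the CX3CR1- array. In 14 of the 17 genes its signal lay between those of the CX3CR1high and CD11chigh arrays, and in 14 it was at least 2-fold above the CD11chigh array. Siglec1 was under the floor in both.

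Heme and iron handling genes were at least 2-fold higher in 7 of 15 members and lower in 0 (median 0.85). Besides Spic these were the iron exporter Slc40a1 (2422 against 354), the biliverdin reductases Blvrb (2947 against 529) and Blvra (1228 against 522), Vcam1 (7843 against 1847), heme oxygenase Hmox1 (10772 against 2595) and the iron importer Slc11a2 (1191 against 516). The ferritin chain Fth1 (39180.1 against 35462) and the repressor Bach1 (11784 against 8875) were within 2-fold.

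Genes for the uptake of dead cells and of opsonised particles were mostly higher as well. In the apoptotic cell uptake list 8 of 14 members were at least 2-fold higher and 0 lower (median 1.20). Gas6, which bridges dead cells to the receptors Mertk and Axl, was 5429 against 614 (8.84-fold). Mertk was 894 against 333 (2.68-fold) and Pros1, another member of the list, 711 against 321 (2.22-fold). Axl (1644 against 996) and the bridging molecule Mfge8 (476 against 706) were within 2-fold. The scavenger receptors Stab1 (6849 against 1204, 5.69-fold), Cd36 (4876 against 1004, 4.86-fold) and Msr1 (3184 against 1237, 2.57-fold) were higher. Of 6 Fc receptor genes 5 were higher by 2-fold or more (median 1.47). The receptors for IgG were Fcgr1 (2989 against 912), Fcgr4 (4587 against 1588), the inhibitory Fcgr2b (15901 against 6003) and Fcgr3 (11992 against 4859.5), at 2.47- to 3.28-fold. Fcgrt, which encodes the recycling receptor FcRn, was 3723 against 868 (4.29-fold). Fcer1g, the signalling chain of the activating receptors, was 18941 against 10959, within 2-fold.

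Complement genes followed in 7 of 17 members, with 0 lower (median 0.67). Apart from C1q these were the anaphylatoxin receptors C3ar1 (5610.2 against 1005, 5.58-fold) and C5ar1 (521 against 113, 4.60-fold), the complement receptor Vsig4 (300.1 against 9.75, at least 2.92-fold) and the decay factor Cd55 (315 against 152). The integrin chain Itgb2 and the properdin gene Cfp were within 2-fold.

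Lysosomal genes showed small ratios in the same direction, with 7 of 23 higher, 1 lower and a median of 0.62. The proteases Ctsl (18555 against 4547, 4.08-fold) and Ctsd (8692 against 3265, 2.66-fold), progranulin Grn (10539 against 3672) and the peptidase Tpp1 (4978 against 1978) were higher. Ctss, the protease that trims the invariant chain of MHC class II in DCs and macrophages, was level (22509 against 22258). Napsa, an aspartic protease, was the exception at 352 against 4207, 11.9-fold lower, and reached 5582 in the CD11chigh DCs. In the lipid list 4 of 15 were higher and 1 lower (median 0.62). Higher were the lipid receptor Trem2 (1344 against 209, 6.44-fold), the cholesterol transporter Npc1 (1025 against 223, 4.60-fold), the lipid droplet protein Plin2 and Gpnmb. Lipoprotein lipase Lpl was lower (964 against 2513), and Apoe (36172 against 21021) and Abca1 (10738 against 6799) were within 2-fold.

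Sensors of microbes leaned to the CX3CR1high array, with 4 of 13 Toll-like receptor and adaptor genes at least 2-fold higher and 0 lower (median 0.73). Tlr7, a sensor of single-stranded RNA, was 864 against 137 (6.29-fold, or 2.65 on the log2 scale), while its other probe sets gave log2 ratios of 0.87 to 1.04. Tlr2, a sensor of bacterial lipoproteins, was 6086 against 1594 (3.82-fold). Tlr4 (395 against 158) and its partner Ly96 (999.5 against 328) were higher, while their co-receptor Cd14 and the adaptor Myd88 (1347 against 1727) were within 2-fold. Tlr3, Tlr8 and Tlr9 were under the floor in both. Type I interferon response genes were at least 2-fold higher in 6 of 14 members and lower in 0 (median 0.97), with Oas2 (582 against 188) and Oasl1 (2929 against 1171) at the top and Ifit1 (968 against 865) level.

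Cytokine genes stood on both sides. Il10, the anti-inflammatory cytokine, was 7028 against 3003 (2.34-fold higher in the CX3CR1high array), and it was the only 1 of 17 genes of the IL-10 and negative regulator list at 2-fold, with 0 lower. Tnf was 2740.2 against 745 (3.68-fold) and Il15 263 against 111 (2.37-fold). Il12b, the shared subunit of interleukins 12 and 23, was 68.0 against 496, at least 4.82-fold lower, and its relative Ebi3 1358 against 3028. Il6 (2846 against 5274), Il1b (19111 against 29043) and the antagonist Il1rn (7231 against 7156) were within 2-fold. Il23a, the partner of Il12b, was 61.1 against 124, and Il12a, Csf2 and Nos2 were under the floor in both.

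DC genes were higher in the CX3CR1- array. Of the shared conventional DC list 9 of 15 members were at least 2-fold lower in the CX3CR1high cells and 0 higher, with a median log2 ratio of -1.22. Kit, the stem cell factor receptor, was 94.6 against 1917 (at least 18.6-fold), and Flt3 19.0 against 837 (at least 8.13-fold). Zbtb46, a transcription factor that marks conventional DCs, was 118 against 861 (7.28-fold), Cd24a 1469 against 9830.4 (6.69-fold) and the peptidase Dpp4 129 against 759 (5.88-fold). In the CX3CR1- cells Kit and Zbtb46 reached the signals of the CD11chigh DCs (1897 and 813), while Flt3 and Dpp4 stayed below theirs (2579 and 1866).

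Mature or migratory DC genes were lower in the CX3CR1high array in 10 of 18 members and higher in 1 (median -1.11). Beside Ccr7, Ccl17, Ccl22 and Ccl5 these were the actin bundler Fscn1 (1579 against 7615, 4.82-fold), the signalling adaptor Traf1 (975 against 4990.3, 5.12-fold), Socs2 (366 against 1189), Samsn1 (483 against 1505), Nfkb2 (1253 against 3543) and Tnfrsf9 (219 against 452). Cd83, a maturation marker, was level (19995 against 20323), as was Marcksl1, and Anxa3 was higher (2217 against 911). In 10 of the 18 genes over the floor in any array the CX3CR1- signal was the highest of the 4. The order of the 4 arrays was not counted over all genes, for this list or the others.

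The lists that part the subtypes of conventional DCs gave mixed values. Of the CD11b-type list 4 of 17 members were lower in the CX3CR1high cells and 0 higher (median -0.41). Those were S100a4 (2153 against 19758, 9.18-fold), the lymphotoxin chain Ltb (107 against 923, 8.67-fold), the lectin Cd209a (542 against 2603, 4.80-fold) and Pdcd1lg2 (160.2 against 431). In the CD11b+ cells S100a4 reached 16540.2 and Ltb 846. In the CD11chigh DCs S100a4 was 11507, Ltb 208 and Pdcd1lg2 859, the last above its CX3CR1- signal. Cd209a was 373 in the CD11b+ cells and 381 in the CD11chigh DCs. Irf4, the transcription factor of this subtype, was 703 against 979, and Sirpa (3724 against 3488), Klf4 and Clec10a were also within 2-fold. Of the CD103-type list 3 of 11 were higher and 3 lower. Its median was -0.63, and 0.44 with the floor at the 75th percentile. Neither array reached the floor for Xcr1 and Tlr3. Batf3 was 325 against 724, below the 1285 of the CD11chigh DCs. Irf8, the transcription factor of the CD103 subtype, was 3272 against 1619, and both were far below the CD11chigh DCs (11382). The CX3CR1- signal was below that of the CD11chigh DCs in all 14 measured genes of this list.

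**Figure D3:**
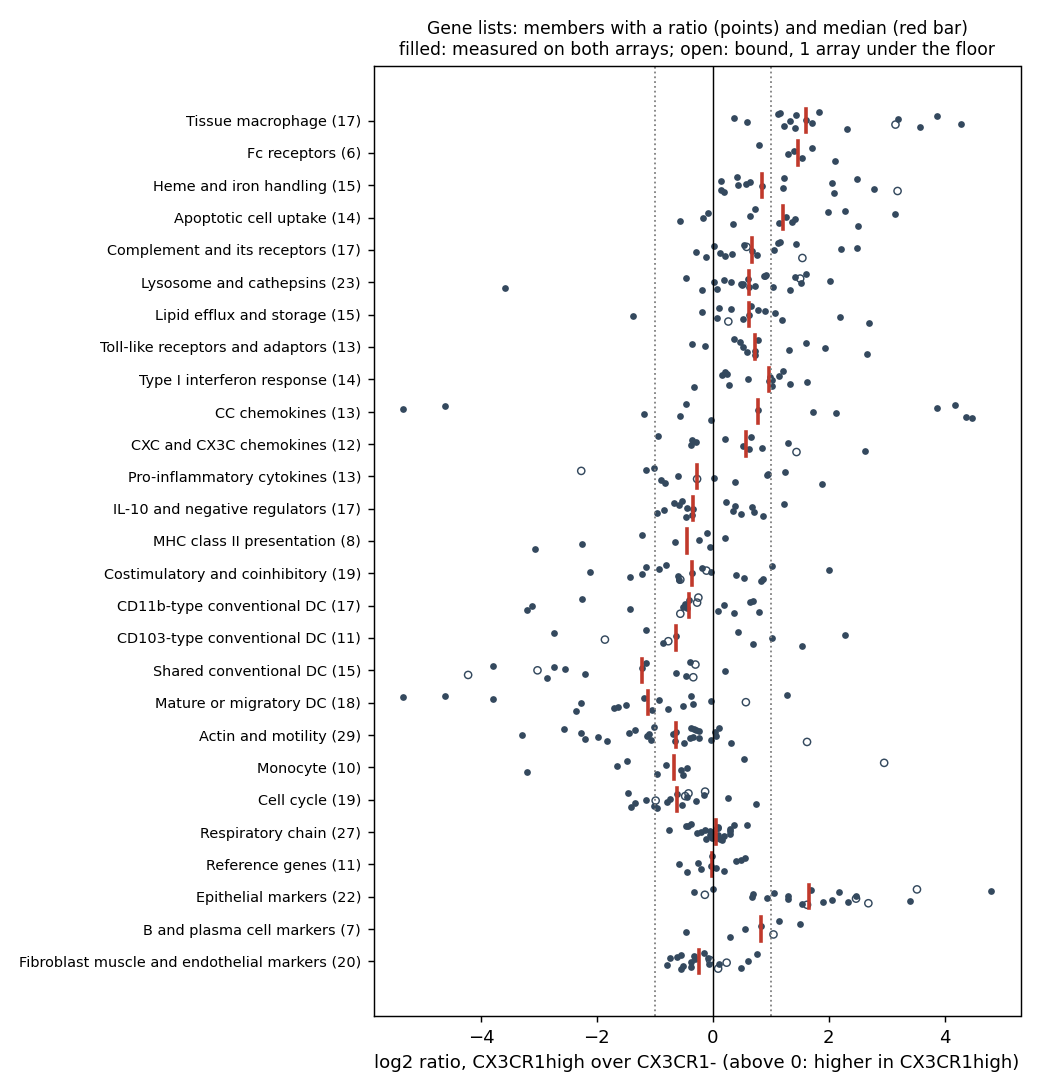
Log2 ratio of the CX3CR1high over the CX3CR1- array for members of 27 gene lists, with the number of members that have a ratio in parentheses; red bars are medians, open points are bounds, and dotted lines mark 2-fold. Tissue macrophage (median 1.62), Fc receptor (1.47) and apoptotic cell uptake (1.20) lists lie to the right, shared conventional DC (-1.22) and mature or migratory DC (-1.11) lists to the left, and epithelial markers (1.66) also lie to the right.

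Of 8 genes of MHC class II presentation 3 were lower in the CX3CR1high array and 0 higher (median -0.44). H2-Aa (31256 against 27164), H2-Ab1 (29086 against 34313), H2-Eb1 (32251 against 33398) and the invariant chain Cd74 (29845 against 31844) were level. Their signals were among the brightest of arrays whose highest signals were 44238 and 45013. H2-Oa, a subunit of the peptide-editing inhibitor DO, was 201 against 1672 (8.34-fold lower), H2-DMb2 338 against 1618 (4.79-fold) and the transactivator Ciita 151 against 350.5. H2-DMa, a chain of the peptide editor DM, was within 2-fold (6176 against 9686). Among costimulatory and coinhibitory genes 4 of 19 were lower (21.1%, against 6.54% of all genes) and 2 higher (10.5%, near the 8.56% of all genes). Cd80 was 845 against 3673 (4.35-fold lower), its fellow CD28 ligand Cd86 5348 against 6841, and the PD-1 ligand Pdcd1lg2 was lower while Cd274 (3660 against 4181) was level. Cd28 itself, a T cell gene outside these lists, was 732 against 96.3, at least 7.12-fold higher in the CX3CR1high cells.

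C-type lectins of the CD209 family stood on both sides. Cd209f (1753 against 113, 15.5-fold) and Cd209g (411 against 16.1, a bound just short of the 4-fold limit) were higher in the CX3CR1high array. Cd209a, Cd209c (44.2 against 615, at least 5.98-fold) and Cd209d (128 against 342, 2.67-fold) were lower. Cd209a, Cd209c and Cd209d had their highest signal of the 4 arrays in the CX3CR1- cells. Over the whole lectin list 7 of 20 members were higher and 4 lower. The mannose receptor Mrc1 (17169 against 3436), Clec4n and Clec4d, which bind fungal and mycobacterial glycans, were among the higher. The beta-glucan receptor Clec7a (9272 against 15156) and the galactose lectins Mgl2 and Clec10a were within 2-fold. Receptors best known from NK cells were higher in the CX3CR1- cells: Klrd1 (223 against 2321, 10.4-fold), Klrb1b (279 against 2222, 7.96-fold) and Klrk1 (122 against 574, 4.70-fold). They were high in the CD11chigh DCs as well (3933, 2591 and 3417), while the NK genes Ncr1, Nkg7, Gzma and Prf1 were under the floor in both compared arrays.

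Genes linked with alternative activation stood on both sides, with 3 of 15 higher and 6 lower. Retnla was 11955 against 27748 (2.32-fold lower), Acod1, which makes itaconate, 1092 against 2819, and the lipoxygenase Alox15 78.5 against 900.2 (at least 8.75-fold lower). Chil3 was at least 7.75-fold higher (798 against 53.3), although both lay far below the 13237 of the CD11b+ cells. Arg1 was under the floor in both.

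Eicosanoid genes stood on both sides, with 4 of 16 higher and 4 lower. Hpgds (913 against 86.3, at least 8.87-fold), the leukotriene C4 synthase Ltc4s (2686 against 316, 8.49-fold) and Hpgd, which breaks down prostaglandins (2059 against 332, 6.21-fold), were higher in the CX3CR1high cells. The other probe set of Hpgd gave a log2 ratio of 0.44, against 2.63 here. Lta4h, which makes leukotriene B4 (739 against 1528), its receptor Ltb4r1 (48.0 against 412, at least 4.01-fold) and Ptger2 (102 against 308) were lower. Ptgs2 and Alox5ap were within 2-fold. Coagulation genes were also found on both sides, with 6 of 17 higher and 5 lower. The transglutaminase chain F13a1 was 15238 against 1902 (8.01-fold higher), the plasminogen activator Plau 683 against 203 and thrombomodulin Thbd 1555 against 593. Factor V, F5, was 212 against 1787 (8.42-fold lower), and the inhibitor Serpinb2 929 against 3690.

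Actin and motility genes had 12 of 29 members lower in the CX3CR1high array and 1 higher (median -0.63). Lsp1, an actin-binding protein of leukocytes, was 847 against 8296 (9.79-fold), the calponin Cnn2 775 against 4611 (5.95-fold), the severing protein Scin 109 against 498 (4.59-fold), Myo1g 1407 against 5579.7 and Vasp 3369 against 11878. The higher member was Vil1, an actin bundler of epithelial brush borders (317 against 100.2). The integrin chain Itgb7, which pairs with the chains Itga4 and Itgae for homing to and staying in the gut, was 262 against 2275 (8.68-fold lower), and Itga4 was 91.3 against 278. Itga9 (736 against 263) and Itga6 (629 against 227) were higher. Cell cycle genes were lower in 5 of 19 members and higher in 0 (median -0.61). Mki67 was 978 against 2492 and Top2a 258 against 683.

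Growth factor and receptor genes were higher in 5 of 14 members and lower in 2, the latter being Kit and Flt3. Igf1 was 1699 against 225 (7.56-fold higher in the CX3CR1high array), Pdgfa 3916 against 1221 (3.21-fold) and the TGF-beta receptor Tgfbr2 5605 against 2317 (2.42-fold). The GM-CSF receptor chains Csf2ra and Csf2rb were within 2-fold. Aldh1a2, the enzyme with which gut DCs make retinoic acid, was 99.4 against 487 (at least 4.73-fold lower). Among macrophage transcription factors 6 of 23 were higher and 2 lower. Beside Spic these were Cebpa (1045 against 505), Atf3 (7187 against 3065), Tfec (227 against 84.2), Runx1, for which another probe set gave the opposite sign, and Rxra, at the 2-fold limit and likewise with a probe set of opposite sign. Bhlhe40 (2205 against 11331, 5.14-fold) and Stat6 (1338 against 3169.7) were lower. Maf was under the floor in both.

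Monocyte genes were lower in the CX3CR1high array in 3 of 10 members and higher in 1 (median -0.68). Fibronectin, Fn1, was 1753 against 5494, with 8235 in the CD11b+ cells and 274 in the CD11chigh DCs. Its other probe set was level (log2 ratio -0.10, against -1.65 here). Ccr2 and S100a4 are the other lower members. For all 12 measured genes of this list the CD11b+ signal was at or above the CX3CR1high signal.

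Protease inhibitors of the serpin family were found on both sides, with 3 of 11 members higher and 3 lower. Serpinb6a (6823 against 1189, 5.74-fold), Serpinf1 (804 against 202, 3.97-fold) and Serpinb8 (1045 against 299, 3.49-fold) were higher. The related Serpinb6b was 229 against 1504 (6.55-fold lower) and reached 7224 in the CD11chigh DCs. Among matrix proteases and their inhibitors Timp2 was 5904 against 1448 (4.08-fold higher) and Timp1 513 against 1242 (2.42-fold lower). The elastase Mmp12 (434 against 1570) and the sheddase Adam8 (2961 against 9402) were lower, Adam9 (3731 against 1553) was higher, and the collagenase Mmp13 (8835 against 8837) was level.

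Solute carriers of macrophages were higher in 4 of 18 members and lower in 2 (median 0.28). Higher beside Slc40a1 were the amino acid transporter Slc7a7 (608 against 269.5), Slc37a2 (769.8 against 362) and the zinc exporter Slc30a1 (493 against 185, 2.66-fold). The glucose transporter Slc2a3 was 420.3 against 2321 (5.52-fold lower) and the cystine transporter Slc7a11 210.4 against 757 (3.60-fold lower). Of 16 glycolysis genes only Pfkp, a phosphofructokinase, passed 2-fold, at 1005 against 2861. In the TNF superfamily Tnf and the lymphotoxin receptor Ltbr (771 against 384) were higher, and Ltb, Tnfrsf9 and Tnfrsf18 (111 against 358) were lower. Of 22 immediate early genes, which respond within minutes to handling and to signals, 2 were higher, Fosl1 (1013 against 364) and Atf3, and 1 was lower, Nr4a2 (413 against 1046), shares near those of all genes.

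Some of the largest ratios belonged to genes of no list. In the higher direction these included Sycn (3711 against 400.4, 9.27-fold) and Ctla2b (2667 against 322, 8.29-fold). The largest bound was that of Saa1, a serum amyloid made by gut epithelium and phagocytes, at 7125 against 83.2, at least 69.3-fold. In the lower direction the ratios outside the lists were those of the nuclear pore gene Nup210 (125 against 1865, 14.9-fold), Sema7a (532 against 5260.3, 9.89-fold), Ramp3 (728 against 6034, 8.29-fold), Rras2 (155 against 1196) and Arap2 (234 against 1752). Among list members not yet described, Cd300lf, an inhibitory receptor of myeloid cells, was 254 against 3224 (12.7-fold), and the granzyme B inhibitor Serpinb9 713 against 6409.9 (8.99-fold). Bounds in that direction included Alpk2 (82.8 against 1047, at least 10.2-fold), Tesc (70.5 against 773), Aqp9 (92.0 against 525) and Padi4 (36.1 against 518). Plet1 (248 against 2603, 10.5-fold) was passed over in this naming because another of its probe sets had the opposite sign.

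Markers of other cells were read beside these results, and their part in them was not tested. Epithelial genes were among the largest ratios toward the CX3CR1high array, with Car4 at 3179.8 against 114 (27.8-fold), Lypd8 at 11122 against 1058 (10.5-fold), Aqp8 at 1180.4 against 87.0 (at least 11.5-fold) and Slc26a3 at 660.3 against 42.7 (at least 6.42-fold). Of the 103 genes called higher, 9 were on the epithelial list, out of 22 with a ratio, and 6 were immunoglobulin genes, out of 14. Over all genes with a ratio, 1.38% were called higher. Among 14 immunoglobulin genes over the floor, 10 passed 2-fold toward the CX3CR1high array and 0 the other way, such as Iglv1 (5576 against 431, 12.9-fold), and Jchain was 18478 against 10329. The B cell genes Ms4a1, Cd79a and Pax5 were under the floor in both. In the neutrophil list S100a8 (651 against 24.1) and S100a9 (454 against 44.5) were higher, both far below the CD11b+ cells (4058 and 3416), and 8 of 12 genes, Mpo, Elane and Ngp among them, were under the floor in both. Toward the CX3CR1- array went Siglecf (60.2 against 544) and Alox15 of the eosinophil list, with Epx and Il5ra under the floor in both, and Hdc of the mast cell list (262 against 1376), with Cpa3 and Ms4a2 under it. Il7r (2636 against 7311) and Cd2 (106 against 326) were higher in the CX3CR1- cells, while Cd3d, Cd3e and Cd3g were under the floor in both. Fibroblast, muscle and endothelial genes were within 2-fold in 20 of 20 members with a ratio. Summed signals over each list, CX3CR1high first and CX3CR1- second, were 66905 and 55195 for immunoglobulin genes, 36226 and 23248 for B and plasma cell markers, and 3096 and 1509 for neutrophil markers. They were 261 and 1758 for eosinophil, 439 and 1787 for mast cell, 3754 and 8613 for T, NK and innate lymphoid, and 22099 and 28453 for fibroblast, muscle and endothelial markers. The CD11b+ array exceeded both in the immunoglobulin, B and plasma, neutrophil, mast cell and fibroblast sums. Without any gene of these lists of other cells and without immunoglobulin genes, 86 higher and 90 lower genes remained called. The lists hold chosen markers only, so transcripts of other cells can remain among these genes.

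The called genes were then read in the CD11b+ and CD11chigh arrays, which share no sample with the ratio that chose them. Of 95 higher genes with a ratio there, 68 (71.6%) were at least 2-fold higher in the CD11b+ than in the CD11chigh array and 4 (4.21%) at least 2-fold lower. Among all genes the shares were 17.0% and 10.4%. Of 93 lower genes 45 (48.4%) were at least 2-fold lower in the CD11b+ array and 21 (22.6%) at least 2-fold higher. Median log2 ratios of the CD11b+ over the CD11chigh array were 1.78 for the higher and -0.93 for the lower genes, against 0.08 over the 7098 genes with both ratios. Across these genes, which are not independent replicates and share an array design, Pearson's r between the log2 ratios was 0.26. The lower genes differed among themselves in these arrays. Ccr7, Ccl17, Kit, Flt3, H2-Oa and Klrd1 were high in the CD11chigh DCs too, while Cd300lf, F5, Alox15, Ltb and Tesc were higher in the CD11b+ cells than in the DCs. By the array of highest signal, 58 of the 94 lower genes peaked in the CX3CR1- cells, 34 in the CD11chigh DCs and 2 in the CD11b+ cells. Of the 103 higher genes 94 peaked in the CX3CR1high cells, 7 in the CD11b+ cells and 2 in the CD11chigh DCs, Ctla2b (4022) among the last. Both sets of counts follow in part from the choice of genes. A 4-fold gap between 2 arrays favours a peak in the higher of them. Shares over all genes were not taken. For 70 of the 103 higher genes the CD11b+ signal lay between those of the CX3CR1high and CX3CR1- cells. In 26 it was at or under the CX3CR1- signal, and in 7 at or over the CX3CR1high signal. The gap that chose these genes favours a place between the 2.

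**Figure D4:**
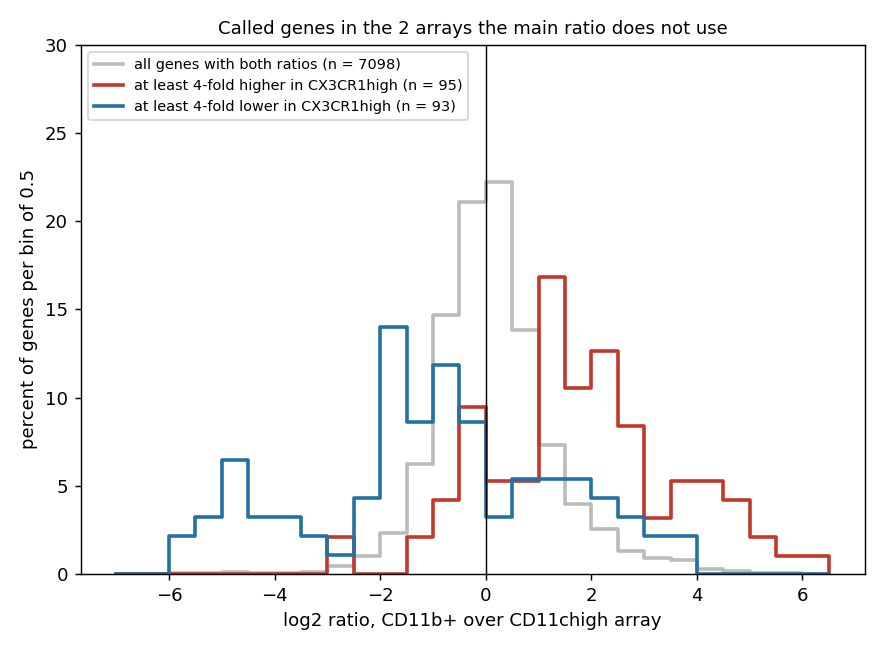
Distribution of the log2 ratio of the CD11b+ over the CD11chigh array, in percent of genes per bin, for all 7098 genes with both ratios and for the called genes that have one, 95 called higher and 93 called lower in the CX3CR1high array. The higher genes are shifted to the right (median 1.78), and the lower genes spread to both sides with a median of -0.93.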

How the data were processed

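RNA of each population was labelled with biotin and read on 1 array, per the labels' protocols, which state that RNA with little degradation was chosen. The authors' deposited intensity values are linear. The submitters' processing notes name MAS5, and its version was not stated there. After trimming 2% at both ends every array had a mean of 500.3, so this scaling was left as it was. Detection calls were not used. The probe sets included 64 controls, 691 with several gene names and 1555 with none. RefSeq's table held 99.9% of the Entrez numbers, and 0 symbols changed. A gene is read by its brightest probe set (mean log2 over all arrays), with sets ending in _x_at used last. There is no test, and 1 array per population limits precision.

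Calls were set at 4-fold and list counts at 2-fold. Of 844 names in 51 lists, 107 matched no probe set. Named are list members and, in each direction, the 20 largest measured ratios and 10 largest bounds, without predicted names and genes with a probe set of opposite sign. Members and lists were chosen with earlier results of these data known. The sequences shown were chosen after values were seen. Python 3.11.15, numpy 2.4.6 and pandas 2.3.3 were used, and the procedure was tested on simulated data. The 8 alternatives changed the floor (25th percentile, 75th percentile, or none), added a pseudocount, normalized by quantiles or to equal medians, averaged a gene's probe sets, or left out probe sets shared between transcripts.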

Additional observations from a re-analysis of the deposited data

How the results depend on the processing

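The count of genes at least 4-fold higher and lower, 103 and 94, followed the floor. It was 174 and 151 with the floor at the pooled 25th percentile, 47 and 37 at the 75th, and 616 and 649 with none. In the other alternatives it stayed between 79 and 128 higher and between 70 and 108 lower. The median log2 ratio of the CD11b+ over the CD11chigh array for the higher genes was 1.20 with the 25th percentile floor, 0.53 with none and 1.22 with the pseudocount, and for the lower genes -1.55 with the 75th percentile floor and -0.08 with none. Of the named genes past 2-fold, 0 changed sign in any of the 8 alternatives that gave them a value. Of 51 list medians, 2 to 5 changed sign in each of them, among them the plasmacytoid DC, CD103-type DC, coagulation and eicosanoid lists. Equal medians moved the median of all genes from 0.02 to -0.06. No paired analysis was possible because each population has 1 array, and for the same reason no array could be left out. Signals under the floor give bounds only.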
